A study of Mus musculus with 7 samples.

Results

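The miR-148 and miR-152 family comprises the microRNAs (miRNAs) cut from the miR-148a, miR-148b and miR-152 hairpins. Its 6 mature arms, of 640 miRNAs counted in the series, were chosen by hairpin name, and the family was selected on the rise of miR-152-3p 4 h after status epilepticus (SE). The values at 4 h are therefore given as a description. Ago2 holds the guide strand of a miRNA duplex and pairs it with messenger RNAs through the seed, the bases near its 5′ end, while the other strand of the duplex is usually discarded. The guide strands of this family come from the 3p arms and share a seed, and DNA methyltransferases are among the best known targets of miR-148a and miR-152. In blood, part of the circulating miRNA travels bound to Ago2 outside vesicles.

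RNA was sequenced from Ago2 immunoprecipitates of plasma from adult male c57 mice, named C57BL/6JOlaHsd in the study's methods. SE was triggered with kainic acid injected into the amygdala, followed by midazolam or lorazepam, and plasma was taken after 4 h, after 8 h, after 24 h and after 2 weeks. Controls received PBS in place of kainic acid and are represented at the same times up to 24 h, since the library of the 2-week control did not pass quality control, as the study's methods state. Each of the 7 conditions was 1 library made from the pooled plasma of 10 mice. In the sequencing, the spread between animals was therefore not measured and no difference between conditions had a replicate check. Outside the sequencing, the study measured miR-19b-3p by Taqman assay in further plasma samples and reported it raised at the last time-point after SE. No member of the family is named among those assays. The 2-week SE library was compared with the 24 h control, so that time and SE cannot be told apart in that comparison.

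Total counts were 2043220, 3529563 and 3412752 in the controls. They were 5405357, 3166964, 3718313 and 2541062 in the SE libraries. Here and in what follows, values of several libraries stand in order of time, from 4 h to 24 h for controls and from 4 h to 2 weeks for SE. Levels are given as CPM, the counts per 1000000 counts of a library size adjusted by the trimmed mean of M-values (TMM). The erythrocyte miRNA miR-486b-5p took between 62.5% (95% Wilson interval 62.5 to 62.6, SE 8 h) and 76.1% (76.0 to 76.1, SE 24 h) of a library. Another erythrocyte miRNA, miR-451a, was scarce, with 3, 39 and 81 counts in the controls and 47, 33, 45 and 46 in SE. Intervals and limits covered counting error only, since PCR copies are not independent molecules.

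The 4 h control stood apart from the other libraries. A count above 0 was found for 232 miRNAs there, against 314 to 399 in the others. Low counts were not spread evenly but gathered around a value particular to each library, 102 counts in the 4 h control and 33.1 to 60.2 in the others. That value equalled 58.7 CPM in the 4 h control and 8.83 to 16.1 CPM elsewhere. Counts below these values also occurred, and what sets the values was not tested. Values of the members at 4 h are therefore also given against the other controls.

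The mature sequences are shown, with the seed (bases 2 to 8) in capitals, because the shared seed defines the family and the near identity of the 3p arms limits how their reads could be told apart. All 6 were found in RefSeq (build GRCm38.p6).
miR-148a-3p: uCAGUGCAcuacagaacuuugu
miR-148b-3p: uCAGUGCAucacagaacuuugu
miR-152-3p: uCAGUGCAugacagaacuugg
miR-148a-5p: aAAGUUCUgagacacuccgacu
miR-148b-5p: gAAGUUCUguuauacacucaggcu
miR-152-5p: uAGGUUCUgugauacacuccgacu

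The 3 guide arms shared the seed CAGUGCA, which none of the other counted miRNAs with a RefSeq sequence carried (551 of the 640 rows were matched). The 5p arms of miR-148a and miR-148b shared AAGUUCU, and miR-152-5p had AGGUUCU. Counted from the 5′ end, miR-148a-3p differed from miR-148b-3p by C9U and U10C, and miR-152-3p differed from miR-148b-3p by G10C and G20U over 21 bases. miR-148a-3p and miR-152-3p differed at 3 of 21 bases (C9U, U10G and U20G). The authors' alignment allowed 2 mismatched bases, so reads of miR-148b-3p in particular could have been assigned to either relative, and the split of counts among the 3p arms is uncertain to that extent. Compared base by base from the 5′ end without gaps, the 5p arms differed from each other at 5 to 10 bases. For arms of unlike length (22 and 24 bases) such a count can overstate the difference.

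Each hairpin lies on a chromosome of its own. Mir152 (chr11:96850393-96850465, plus strand) sits in an intron of Copz2, and Mir148b (chr15:103285125-103285221, plus strand) in an intron of Copz1, genes for related subunits of the COPI vesicle coat. Mir148a (chr6:51269812-51269910, minus strand) is intergenic, 162760 bases from Nfe2l3, its nearest protein-coding gene. The miR-152 hairpin is printed because its 5p arm separated the groups, with miR-152-5p and then miR-152-3p in capitals.
miR-152 hairpin: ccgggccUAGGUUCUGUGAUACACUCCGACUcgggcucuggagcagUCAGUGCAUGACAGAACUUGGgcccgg

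miR-148a-3p was the most abundant member and ranked between 26 and 44 among all miRNAs of a library. Its level was 1323, 1706 and 807 CPM in the controls. In SE it was 2641, 2099, 1086 and 1287 CPM. The groups overlapped, since the 24 h and 2-week SE libraries lay below the 4 h and 8 h controls, and the control range alone was 2.11-fold.

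miR-152-3p, the member on which the family was chosen, had 157, 602 and 287 counts in the controls, or 90.1, 139.6 and 72.7 CPM. In SE it had 1908, 981, 391 and 170 counts, or 448, 269, 139.4 and 55.1 CPM. Levels in SE thus descended with time over an 8.14-fold range, and over 4.89-fold without the 4 h library on which the family was chosen. The controls spanned 1.92-fold. The 4 h and 8 h SE libraries lay above the 3 controls, the 24 h SE library equalled the 8 h control within counting error, and the 2-week SE library was the lowest of the 7.

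miR-148b-3p had 56, 377 and 513 counts in the controls (32.1, 87.4 and 130.0 CPM). In SE it had 596, 367, 334 and 391 counts (140.0, 101, 119 and 127 CPM). The SE libraries stayed within 1.39-fold of each other while the controls spanned 4.05-fold, and the control at 4 h held fewer counts than the value around which its low counts gathered.

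**Figure D1:**
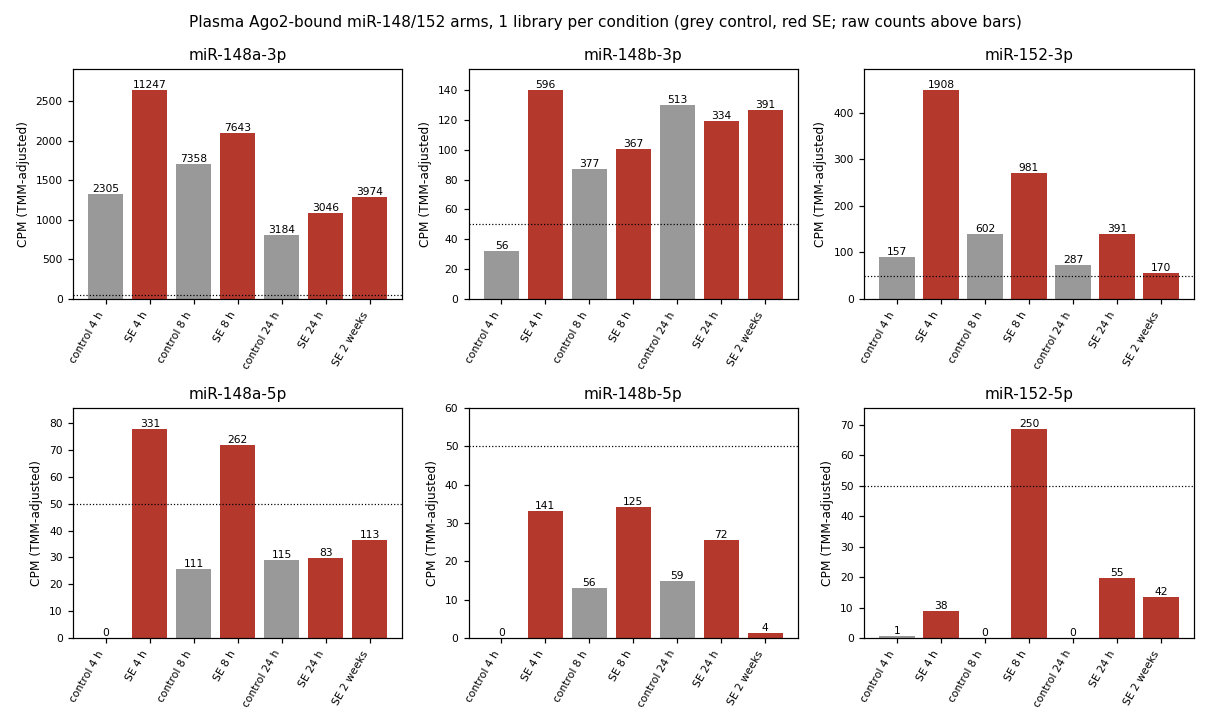
Level of each arm in TMM-adjusted CPM (vertical axes, linear, from 0) in the 7 libraries, grey for control and red for SE, with raw counts above the bars and a dotted line at 50 CPM. miR-152-3p descends from 448 CPM at 4 h to 55.1 CPM at 2 weeks after SE, and miR-152-5p has 1, 0 and 0 counts in the controls.

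At 4 h, all 4 members that reached 50 CPM in either library were higher in SE. Of these, miR-148b-3p and miR-148a-5p reached it only in the SE library. The fold was 4.97 for miR-152-3p (95% exact counting interval 4.22 to 5.89), 4.36 for miR-148b-3p (3.31 to 5.84) and 2.00 for miR-148a-3p (1.91 to 2.09). miR-148a-5p, at 0 counts in the control, was at least 45.2-fold higher, taking reads as independent and 3 counts as the limit that a count of 0 allows. Low counts in that control gathered around 102 counts, or 58.7 CPM, so a count of 0 there may allow a higher level. The call was an edgeR exact test on the reads of the pair of libraries, run at a fixed biological coefficient of variation (BCV) of 0.1. A miRNA was called where p, without adjustment, was under 0.05 and the levels differed at least 1.5-fold. The test compares libraries, not conditions. At 4 h it called 67.2% of the 189 miRNAs tested, 32.3% as higher. This was the contrast used to choose the family. The median log2 fold change of miRNAs at 50 CPM in both libraries was 0.21 with TMM and 0.078 with DESeq2's size factors, under which miR-152-3p stood at 2.18. Against the 24 h control in place of the 4 h control, the log2 fold change was 2.62 for miR-152-3p and 1.71 for miR-148a-3p, but only 0.11, with no call, for miR-148b-3p. Against the 8 h control, that of miR-152-3p was 1.68, that of miR-148a-3p 0.63 and that of miR-148b-3p 0.68, all called. miR-148a-5p stood at 1.59 against the 8 h control and 1.41 against the 24 h control. With estimated molecules (counts divided by the value where low counts gathered), 1 of the 4 members, miR-148a-3p, was called, and miR-152-3p (1.99), miR-148b-3p (1.31) and miR-148a-5p were not.

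At 8 h, miR-152-3p was 1.93-fold higher in SE (1.74 to 2.14, log2 0.95) and miR-148a-5p was 2.79-fold higher (2.23 to 3.52). With reads taken as independent, miR-152-5p, at 0 in the control, was at least 98.7-fold higher. Of the 5 members tested, these 3 were called, beside 50% of the 154 miRNAs tested, or 35.1% counting only those higher. Of the 3, miR-148a-5p and miR-152-5p passed the 50 CPM filter only through the SE library, where they were high, so their calls are no support. The share among the members was close enough to the background, with so few of them, that nothing particular to the family could be read from it. miR-148a-3p (1.23-fold, 1.19 to 1.27) and miR-148b-3p (1.15-fold, 0.996 to 1.33) were not called. With the BCV at 0.4, 1 of the members was called, and miR-152-3p was not. With estimated molecules 0 were called.

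At 24 h, miR-152-3p was again the member called among 3 tested, at 1.92-fold (1.64 to 2.24; log2 0.94). The background was 44.7% of 141 miRNAs called, 24.8% as higher. miR-148a-3p stood at 1.35-fold (1.28 to 1.42) and miR-148b-3p at 0.916-fold (0.796 to 1.05), without a call. The 24 h contrast rested on scaling and on the control used. Dividing by library size alone moved the median log2 fold change of miRNAs at 50 CPM in both libraries from 0.037 to −0.58, and with it miR-152-3p fell to 0.32, with no call, and miR-148a-3p to −0.19. miR-148b-3p, at −0.74, was then the 1 member called, as lower. Against the 8 h control, miR-152-3p had a log2 fold change of −0.0018, and against the 3 controls summed 0.41, with no call. Its call was also lost with the BCV at 0.4 and with estimated molecules. The call stayed against the 4 h control (0.63), with DESeq2's size factors (0.996) and with TMM over the 2 libraries compared (0.88). It also stayed without miR-486b-5p on library size (0.79). miR-148a-3p was called lower against the 8 h control (−0.65), and miR-148b-3p higher against the 4 h control (1.89).

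At 2 weeks, miR-148a-3p was 1.60-fold higher than in the 24 h control (1.52 to 1.67) and was the member called among 3 tested, beside 31.7% of 145 miRNAs called, 18.6% as higher. miR-152-3p stood at 0.757-fold (0.623 to 0.918; log2 −0.40) and miR-148b-3p at 0.974-fold (0.852 to 1.11), both without a call. Against the 8 h control, miR-148a-3p was at −0.41 and miR-152-3p at −1.34 on the log2 scale, the latter called lower. The call of miR-148a-3p was also lost with the BCV at 0.4, against the 3 controls summed (0.0030) and against the 4 h control (−0.039). The 24 h and 2-week comparisons share their control library.

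The controls were compared with each other by the same test to show how far plasma libraries without SE lay apart. Between the 8 h and 4 h controls, 59.3% of 177 miRNAs were called, including miR-152-3p (log2 0.63) and miR-148b-3p (1.44), both higher at 8 h. Between the 24 h and 4 h controls it was 69.6% of 181, with miR-148b-3p higher (2.01) and miR-148a-3p lower (−0.71) at 24 h. Between the 24 h and 8 h controls it was 45.4% of 141, with miR-152-3p (−0.94) and miR-148a-3p (−1.08) lower at 24 h. In the comparisons with the 4 h control, miR-148b-3p reached 50 CPM only in the later control, so its calls there are no support. By the shares called, controls differed from each other about as often as SE libraries differed from their controls. The difference of miR-152-3p between the 24 h and 8 h controls was about as large as its differences between SE and control at 8 h and 24 h.

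Libraries not used in choosing the family were also compared as a group, the 8 h and 24 h SE libraries against the 8 h and 24 h controls, with the time-points standing in for replicates, which they are not. edgeR's quasi-likelihood test with Benjamini-Hochberg adjustment called 0 of 132 miRNAs (0%). At an unadjusted p under 0.05 it passed 9, and DESeq2's Wald test called 0 and passed 11. With time-point as an additive term, so that each SE library was set against the control of its time, edgeR called 5 and passed 20, none of them a member. miR-152-3p had a log2 fold change of 0.94 (edgeR adjusted p = 0.934; 0.368 to 0.996 over the alternatives), higher in SE at both times. The log2 fold change was 0.34 for miR-148a-3p and 0.016 for miR-148b-3p. Without the SE 8 h library that of miR-152-3p was 0.39, and without the control 8 h library 1.49.

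Within the family, the share of each guide arm does not depend on how libraries are scaled. miR-152-3p made up 6.24% of the 3p counts in the 4 h control (95% Wilson interval 5.36 to 7.25), 7.22% in the 8 h control (6.68 to 7.80) and 7.20% in the 24 h control (6.44 to 8.05). After SE it made up 13.9% (13.3 to 14.5), 10.9% (10.3 to 11.6), 10.4% (9.44 to 11.4) and finally, at 2 weeks, 3.75% (3.23 to 4.34). The 3 controls lay within counting error of each other, the SE libraries at 4 h, 8 h and 24 h lay above them and the 2-week library below. With 1 library per condition these shares were not tested, and the share at 4 h follows from the choice of the family.

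miR-148b-3p had no such order. Its share of the 3p counts was 2.22%, 4.52% and 12.9% in the controls and 4.33%, 4.08%, 8.86% and 8.62% in SE. miR-148a-3p held the remaining 79.9% to 91.5%. The family as a whole took 0.123%, 0.241% and 0.122% of the counts in the controls and 0.264%, 0.304%, 0.107% and 0.185% in SE, so the groups overlapped. In plasma, release by fewer or more cells and less or more RNA per cell cannot be told apart.

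The 5p arms, usually the discarded strands, were scarcer. miR-152-5p had 1, 0 and 0 counts in the controls and 38, 250, 55 and 42 counts in SE (8.92, 68.6, 19.6 and 13.6 CPM). It therefore separated the groups, being found above 3 counts in each SE library and in no control. This pattern held for 3 of the 640 miRNAs counted (0.469%), and the reverse pattern for 0. At 4 h the ratio to the control was 15.6 (2.63 to 630). With reads taken as independent, the level at 24 h and 2 weeks was at least 25.8-fold and at least 17.9-fold that of the 24 h control. Apart from the SE 8 h library, which held 4.82 times the value where its low counts gathered, the SE libraries held 1.01 to 1.27 times that value, and only the 8 h comparison passed the 50 CPM filter.

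As a share of its hairpin's counts, miR-152-5p made up 0.633% in the 4 h control (0.112 to 3.50). It had 0 of 602 and 0 of 287 counts in the 8 h and 24 h controls, which allow shares of up to 0.498% and 1.05% if reads are independent. In SE it made up 1.95% (1.43 to 2.67), 20.3% (18.2 to 22.6), 12.3% (9.60 to 15.7) and 19.8% (15.0 to 25.7). The SE libraries at 8 h, 24 h and 2 weeks were above the controls beyond counting error, while the 4 h pair had overlapping intervals.

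miR-148a-5p had 0, 111 and 115 counts in the controls (0, 25.7 and 29.1 CPM) and 331, 262, 83 and 113 counts in SE (77.7, 71.9, 29.6 and 36.6 CPM). Its SE libraries lay above its controls in CPM, as did those of miR-152-5p. This held for 12 of the 208 miRNAs that reached 50 CPM in a library (5.77%), and 8 of the 208 lay below their controls in each SE library. For miR-148a-5p the separation rested on 29.6 against 29.1 CPM at 24 h, a difference within counting error (1.02-fold, 0.756 to 1.36). On plain library totals it was lost, with 22.3 CPM in SE and 33.7 CPM in the control at 24 h.

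miR-148b-5p never reached 50 CPM and was not tested. It had 0, 56 and 59 counts in the controls and 141, 125, 72 and 4 counts in SE. At 8 h its ratio was 2.64 (1.91 to 3.69), at 24 h 1.72 (1.20 to 2.47), and at 2 weeks 0.0867 (0.0229 to 0.234). The 24 h difference was smaller on plain library totals, with 19.4 CPM in SE and 17.3 CPM in the control. The 3 SE libraries up to 24 h were above the controls, and the 2-week library was below the 8 h and 24 h controls.

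The share of the 5p arm was also compared between libraries within the miR-148a and miR-148b hairpins. For miR-148a the share ranged from 1.49% to 3.49% wherever it was found, with SE and control overlapping. The 0 of 2305 counts in the 4 h control allows up to 0.130% if reads are independent. For miR-148b it was 12.9% and 10.3% in the 8 h and 24 h controls, 19.1%, 25.4% and 17.7% in SE at 4 h, 8 h and 24 h, and 1.01% at 2 weeks. In the 4 h control, 0 of 56 counts allows up to 5.36%. Ligation and PCR favour some sequences over others, so the sizes of shares were not compared between hairpins.

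**Figure D2:**
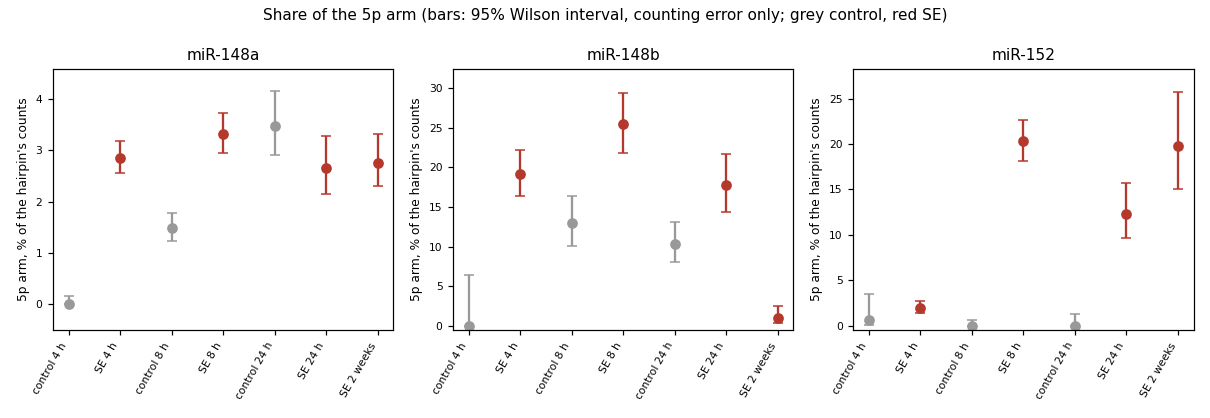
Share of the 5p arm in the counts of each hairpin (vertical axes, %), 1 point per library, grey for control and red for SE, with bars for the 95% Wilson interval of counting error. For miR-152 the share is at most 0.633% in the controls and between 1.95% and 20.3% in SE, while for miR-148a the groups overlap.

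The miRNAs with profiles most like that of miR-152-3p were found by Pearson's r of log2(CPM + 1) over the 7 libraries, among 207 others at 50 CPM or more in a library. They were miR-182-5p (r = 0.946), miR-136-3p (0.925), miR-199b-3p (0.916), miR-30a-5p (0.911) and miR-101a-3p (0.899). The points share library depth and scaling. miR-182-5p, the closest, had 721, 895 and 657 CPM in the controls and 2243, 1976, 1426 and 665 CPM in SE. Within the family, miR-148a-3p ranked 10 (r = 0.829), miR-148a-5p 53 (0.451), miR-152-5p 59 (0.423) and miR-148b-3p 90 (0.220). miR-148b-5p never reached 50 CPM and was not ranked (r = 0.699). The 7 libraries include the 4 h pair on which the family was chosen. The r values and ranks are therefore a description, and no conclusion is drawn from them.

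A list of 11 miRNAs known to target DNA methyltransferases, the 3 guide arms of the family included with members of the miR-29 and miR-101 families, was set beside these results. At 4 h, 8 of 9 tested were higher and 1, miR-342-3p, was lower, with a median log2 fold change of 1.39 against −0.057 over all miRNAs tested. These counts draw on the values that chose the family. Without its 3 arms, 5 of 6 were higher and 1 lower (median 1.14), and 5 of 6 higher and 0 lower against either the 8 h or the 24 h control, where 42.8% and 36.4% of all miRNAs tested were higher. At 8 h, 6 of 9 were higher and 0 lower (median 0.67 against 0.23), among them miR-29a-3p (0.67), miR-101a-3p (0.67) and miR-342-3p (1.32). Without the family, 5 of 6 were higher (median 0.71), of which miR-29c-3p and miR-342-3p reached 50 CPM only in the SE library, as did miR-29c-3p and miR-148b-3p at 4 h and miR-342-3p at 2 weeks. The list included miR-152-3p, and at 24 h that was the 1 of 7 called (median 0.32 against 0.035). At 2 weeks, 3 of 8 were higher and 0 lower (0.15 against 0.0093). Over all miRNAs tested, the shares called higher were 32.3%, 35.1%, 24.8% and 18.6% from 4 h to 2 weeks. With lists this short, and calls that the filter could fix, nothing particular to this or the lists that follow could be read from their counts.

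The study's table of reported tissue enrichment places miR-152-3p under digestive system, and miR-148a-3p, miR-148a-5p and miR-148b-3p under spleen, and also assigns miR-148a-3p to neurons. Of the digestive system list, 2 of 7 tested were higher and 1, at 50 CPM only in the control, lower at 4 h, 3 of 6 higher at 8 h, 1 of 6 higher at 24 h and 0 of 6 at 2 weeks. Besides miR-152-3p, these were miR-151-5p at 4 h and 8 h and miR-375-3p at 8 h. Against the 8 h and 24 h controls, 4 of 6 and 3 of 6 were higher at 4 h. Of the spleen list, 3 of 4 were higher and 1 lower at 4 h, 1 of 4 higher at 8 h, 0 of 3 at 24 h and 2 of 3 higher at 2 weeks. The only miRNA of the spleen list outside the family was miR-19b-3p, so its counts were largely those of the members themselves. miR-19b-3p was the 1 called lower at 4 h and 1 of the 2 called higher at 2 weeks. Against the 8 h and 24 h controls, 3 of 4 and 2 of 4 of the spleen list were higher at 4 h, and 1 lower.

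Lists of markers of cells that could release miRNAs into plasma were also summed. The vascular smooth muscle and liver sums were above each control at 4 h and 8 h after SE. Neither followed miR-152-3p throughout. The smooth muscle sum was also above each control at 2 weeks, where miR-152-3p was lowest, and the liver sum did not descend from 4 h to 8 h. The study's table places miR-143-3p under brain and astrocytes and miR-192-5p under ubiquitous. The vascular smooth muscle list summed to 12989, 11682 and 10562 CPM in the controls and to 41362, 19674, 12934 and 16415 CPM in SE, nearly all of it miR-143-3p. Of its 4 miRNAs, miR-143-5p was at 0 in 6 of 7 libraries and miR-145a-5p at 0 in 3. miR-143-3p was called higher at 4 h, 8 h and 2 weeks, and miR-145a-5p lower at 4 h, where it reached 50 CPM only in the control. The liver list (3 of 4 counted) summed to 12050, 13410 and 14454 CPM in controls and to 20770, 22466, 20708 and 15248 CPM in SE, led by miR-192-5p, which was called higher at 4 h and 8 h, and at 4 h also against the 8 h control but not against the 24 h control. miR-122-5p, the defining liver miRNA, had 0 counts in each control and 59, 0, 1 and 55 in SE, and miR-194-5p had 0, 0 and 45 counts in the controls and 154, 139, 106 and 0 in SE. The part of these cells in the results for miR-152-3p was not tested.

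The other marker lists gave mixed counts. The erythrocyte list, led by miR-486b-5p, had 2 of 5 tested higher at 4 h, both at 50 CPM only in the SE library, 1 lower at 8 h, 2 higher at 24 h and 1 lower at 2 weeks. The platelet list, led by miR-191-5p, had 2 of 5 higher at 4 h, 1 higher at 8 h, 1 lower at 24 h and 0 called at 2 weeks. The leukocyte list, led by miR-142a-5p, had 2 of 5 higher at 4 h, 0 called at 8 h, 2 lower at 24 h and 0 at 2 weeks. Of the neuron list, led by miR-128-3p, 1 of 3 was lower at 4 h, 3 of 4 were higher at 8 h, 1 of 2 at 24 h and 1 of 2 at 2 weeks, and miR-124-3p was at 0 in 6 of 7 libraries. Of these neuron calls, miR-9-5p and miR-138-5p at 8 h and miR-127-3p at 24 h and 2 weeks reached 50 CPM only in the SE library, and miR-9-5p at 4 h only in the control. Against the 24 h control, the 4 h SE library had 0 higher in the erythrocyte, platelet and leukocyte lists, with 0, 1 and 2 lower, and against the 8 h control it had 2, 1 and 2 higher and 0 lower. The neuron count at 4 h also turned with the control. Of 2 tested, 1 was higher and 0 lower against the 8 h control, and 1 was higher and 1 lower against the 24 h control.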

How the data were processed

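The authors trimmed and size-selected small RNA reads with Chimera, aligned them to mouse miRBase by BLASTn with up to 2 mismatches, and deposited raw counts per mature miRNA. The version of Chimera was not given in the sources used here. The submitters' processing notes name edgeR and limma. Members and lists were chosen with earlier results of these data known.

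Counts were used as deposited. TMM factors over all 7 libraries, exact tests (BCV 0.1, prior count 0.125, at least 50 CPM in either library, unadjusted p under 0.05, at least 1.5-fold) and quasi-likelihood tests (at least 50 CPM in 2 of 4 libraries, adjusted p under 0.05) were run in edgeR 4.0.16 under R 4.3.3, with DESeq2 1.42.0 as an alternative. Scripts were tested on simulated counts. Depth ranged from 2043220 to 5405357 counts, and 3 counts, the limit for a count of 0, equalled 0.696 to 1.72 CPM. Intervals were computed in Python 3.11.15 with scipy 1.17.1. Low counts gathered at the mode of a kernel density of log counts from 6 to 300 (bandwidth 0.15). Sequences came from RefSeq and loci from GENCODE (GRCm38).

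The named miRNAs were the members, any other row with a member's seed, the 5 most like miR-152-3p, and members of the lists (DNA methyltransferase-targeting, digestive system, spleen, erythrocyte, platelet, leukocyte, vascular smooth muscle, liver and neuron). Alternatives covered scaling, BCV, the CPM filter, the prior count, the control used and each library left out. Estimated molecules (a library's counts over the mode of its low counts, a name only, since what the mode stands for was not tested), and the comparisons without miR-486b-5p, were added after seeing the data.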

Additional observations from a re-analysis of the deposited data

Results flagged for a closer look

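The log2 fold change of miR-152-3p at 2 weeks was −0.40, opposite in sign to those at 4 h (2.31), 8 h (0.95) and 24 h (0.94). The difference between the times was not tested, since each time had 1 library per condition. The 24 h and 2-week comparisons used the same control library.

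The log2 fold change of miR-148b-3p was −0.13 at 24 h and −0.038 at 2 weeks, opposite in sign to 2.12 at 4 h. These differences were not tested either, and at 24 h and 2 weeks the counting intervals of the fold (0.796 to 1.05 and 0.852 to 1.11) include no change. Both signs turned against other controls, and at 2 weeks also with library size only (0.034). The control at 4 h held 56 counts, and against the 24 h control the value at 4 h was 0.11.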

How the results depend on the processing

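Under the alternatives, 49 log2 fold changes of miR-152-3p kept their direction and side of the threshold, 7 lost their call, 3 gained one and 1 reversed. Some of the 49 could hardly change, since looser CPM filters and the prior count left its p in the exact tests as it was. In the quasi-likelihood settings, the side kept was that of no call. The 4 h value of miR-152-3p ranged from 1.68 to 2.62. Other values that lost or gained a call, or changed sign, are given by setting. The cause was not tested, except that looser filters test more miRNAs.

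All miRNAs called were 127, 77, 63 and 46 of 189, 154, 141 and 145 tested, in order of time. They became 58, 23, 19 and 8 with the BCV at 0.4, 218, 227, 230 and 178 at 10 CPM, and 310, 257, 261 and 238 with any count. With estimated molecules, chosen after seeing the data, they became 31, 26, 19 and 14. The 4 h count was 83 against control 8 h and 76 against the 3 controls summed. Against control 4 h, the counts at 8 h, 24 h and 2 weeks were 122, 124 and 121. Without miR-486b-5p, also chosen after seeing the data, they were 170, 160 and 112 with TMM and 174, 174 and 121 with library size only. Leaving it out shrinks the totals, so that more miRNAs reach 50 CPM.

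Members called were 4 of 4, 3 of 5, 1 of 3 and 1 of 3 tested, beside 67.2%, 50%, 44.7% and 31.7% of all miRNAs tested. With the BCV at 0.4, members called became 1 at 8 h and 0 at both later times. At 10 CPM and with any count they were 3 at 24 h and 3 at 2 weeks. Against control 4 h they were 5, 2 and 2 at 8 h, 24 h and 2 weeks. Against the summed controls they were 0 at 24 h. With estimated molecules they were 1, 0 and 0 at 4 h, 8 h and 24 h. Without miR-486b-5p they were 3 at 24 h with TMM, and 2 at 24 h and 2 at 2 weeks with library size only. The number of all miRNAs called changed with these settings as well, so nothing particular to the family could be read from these counts.

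miR-152-3p lost its call with estimated molecules at 4 h (1.99), 8 h (0.88) and 24 h (1.05), with the BCV at 0.4 at 8 h (0.95) and 24 h (0.94), and with library size only at 24 h (0.32) and there against the summed controls (0.41). Against control 8 h it reversed at 24 h (−0.0018). At 2 weeks it passed the threshold against control 4 h (−0.71), control 8 h (−1.34) and the summed controls (−0.93). miR-148a-3p lost its call at 2 weeks against the summed controls (0.0030) and with the BCV at 0.4, and at 4 h with the BCV at 0.4 and without miR-486b-5p on library size (0.44). It gained one at 8 h against control 4 h (0.67), control 24 h (1.38) and the summed controls (0.71). miR-148a-5p lost its call with estimated molecules at 4 h and 8 h and with the BCV at 0.4 at 8 h, and miR-152-5p with estimated molecules at 8 h. miR-148a-3p reversed against control 8 h at 24 h (−0.65) and 2 weeks (−0.41), and against control 4 h at 2 weeks (−0.039). miR-148b-3p reversed against control 4 h at 24 h (1.89) and 2 weeks (1.98). It gained a call at 8 h against control 4 h (1.65), and lost it at 4 h against control 24 h (0.11), against the summed controls (0.57) and with estimated molecules. With library size only it was called lower at 24 h (−0.74), where it was the 1 member called.

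Values without a call also changed sign. That of miR-148a-3p at 24 h was −0.19 with library size only, −0.28 against control 4 h and −0.24 against the summed controls. That of miR-148b-3p was −0.37 at 8 h against control 24 h and −0.086 without miR-486b-5p on library size. At 24 h it was 0.45 against control 8 h and 0.33 against the summed controls. At 2 weeks it was 0.53 against control 8 h, 0.42 against the summed controls, 0.034 with library size only, 0.12 without miR-486b-5p and 0.33 with estimated molecules. Over 8 h and 24 h, miR-148a-3p was −0.10 and −0.21 without the control 24 h and SE 8 h libraries, and miR-148b-3p ranged from −0.32 to 0.33.

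The quasi-likelihood test over 8 h and 24 h called 0 miRNAs, but 5 with no filter beyond 1 count and 5 with time-point as an additive term, which sets each SE library against the control of its time. With each library left out in turn it called 0 to 4, the lone library of a group being assumed to vary like the others.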

Other observations

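Besides miR-152-5p, the miRNAs above 3 counts in each SE library and at 3 or fewer in each control were miR-1306-5p and miR-195a-5p, named after their values were seen. miR-1306-5p had 0, 0 and 1 counts in the controls and 58, 47, 32 and 78 counts in SE. miR-195a-5p, a member of the miR-15/16 seed family, had 0 counts in each control and 127, 66, 95 and 7 counts in SE.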
